A study of Homo sapiens with 4 samples.

Results

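The soluble complement genes measured here were the 3 chains of C1q (C1QA, C1QB, C1QC), the C1 proteases (C1R, C1S), C2, C3, C5, factor B (CFB) and properdin (CFP). The set was chosen by role in the cascade, by a rule that uses no measured value, and each gene was found by its gene symbol, with the estimated counts and TPM of all its transcripts added up, copies on alternate contigs included. They were 10 genes of 35604 with a transcript in the files and of 15387 tested, and all 10 passed the filter on low counts.

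RNA was taken from iMGL, microglia-like cells made by differentiating WTC11, which is an established line of human induced pluripotent stem cells. The S1KO libraries (2) came from cells edited to lack SHIP1, the inositol 5-phosphatase encoded by INPP5D, and the WT libraries (2) from unedited control cells of the same line. The series design gives 2 clones for each genotype, but the labels do not say which library is which clone, and p-values therefore reflect only the spread among these 4 libraries. The age of the cultures and the position of the edit were not stated.

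Complement is a cascade of plasma and tissue proteins. C1q binds antibody or other marks on a surface and carries the proteases C1r and C1s, which cleave C4 and C2 into the enzyme that splits C3; properdin and factor B drive the alternative route to the same step, and C5 opens the terminal route. In the brain, microglia are the main source of C1q, and in mice C1q and C3 tag synapses for removal by microglia.

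C3 lies on the minus strand of chromosome 19 (ENSG00000125730, 6677704 to 6730562, GRCh38), and most of its counts were divided among the full-length coding transcript C3-201 (5263 nt) and 3 short ones at the 3′ end. C3-212 has 1131 bases absent from C3-201 and is not printed. C3-216 and C3-211 have only short stretches of their own, printed here because the counts given to them, described below, depend on those bases. Capitals mark the bases that are absent from C3-201, and lower case marks bases shared with it. The first 90 of 368 bases of C3-216 (chr19:6678241-6678330, minus strand, annotated as a retained intron) hold all 43 of its own bases. The first 166 of 627 bases of C3-211 (a processed transcript, spliced between chr19:6679382-6680151, minus strand) hold all 76 of its own bases. Both were read from GENCODE 29 on GRCh38.
C3-216: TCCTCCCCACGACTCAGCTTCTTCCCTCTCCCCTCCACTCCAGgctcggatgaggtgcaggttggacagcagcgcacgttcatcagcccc
C3-211: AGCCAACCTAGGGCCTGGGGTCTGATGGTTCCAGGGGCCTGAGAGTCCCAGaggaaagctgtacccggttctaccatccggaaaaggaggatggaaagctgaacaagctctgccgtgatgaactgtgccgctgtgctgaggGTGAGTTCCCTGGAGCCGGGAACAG

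The libraries held 21516813 to 25927881 estimated counts. Mitochondrial genes took 52.32% and 39.24% of them in S1KO 1 and S1KO 2, against 14.2% and 18.9% in WT 1 and WT 2, so nuclear genes were read less deeply in S1KO. Levels are therefore given as CPM after TMM scaling, or, between genes, as nuclear TPM, which is TPM rescaled without mitochondrial genes and their nuclear copies. INPP5D, the edited gene, stood at 81.0 and 97.6 CPM in S1KO, against 355.6 and 440.9 CPM in WT, and fell by 2.16 on the log2 scale (SE 0.21, edgeR adjusted p = 0.0184). Myeloid markers were present in every library (CSF1R 443 to 860 CPM, SPI1 685 to 1050 CPM), while TMEM119 was at 0.798 to 3.1 CPM and SALL1 at 0 to 0.179 CPM. WT 1 stood apart: 12 mesenchymal markers summed to 16.0 and 33.1 CPM in S1KO, against 3600 CPM in WT 1 and 11.1 CPM in WT 2, and COL1A1 gave 2710 CPM of that. The log2 fold change of each of the 10 genes is given below with and without it.

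Per length, C3 and C1QC led the members and the remaining soluble components were scarce. C3, the protein on which the routes converge, was at 3797 and 5414 nuclear TPM in S1KO, against 6058 and 5380 in WT. Among 19920 protein-coding genes it ranked 14 and 7 in S1KO and 7 and 10 in WT. C1QC followed at 1460 and 1778 nuclear TPM in S1KO, against 3199 and 2253 in WT. C1QA and C1QB came next and overlapped each other, between 462.3 and 1168 nuclear TPM over the 4 libraries. CFP, C2, C1S, C5, C1R and CFB lay between 0.5623 and 37.17 nuclear TPM, in ranges that overlapped between neighbours, at ranks 4159 to 13712. Together the 10 genes took 0.536% and 0.634% of the counts outside mitochondrial genes in S1KO, against 1.06% and 0.771% in WT.

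**Figure D1:**
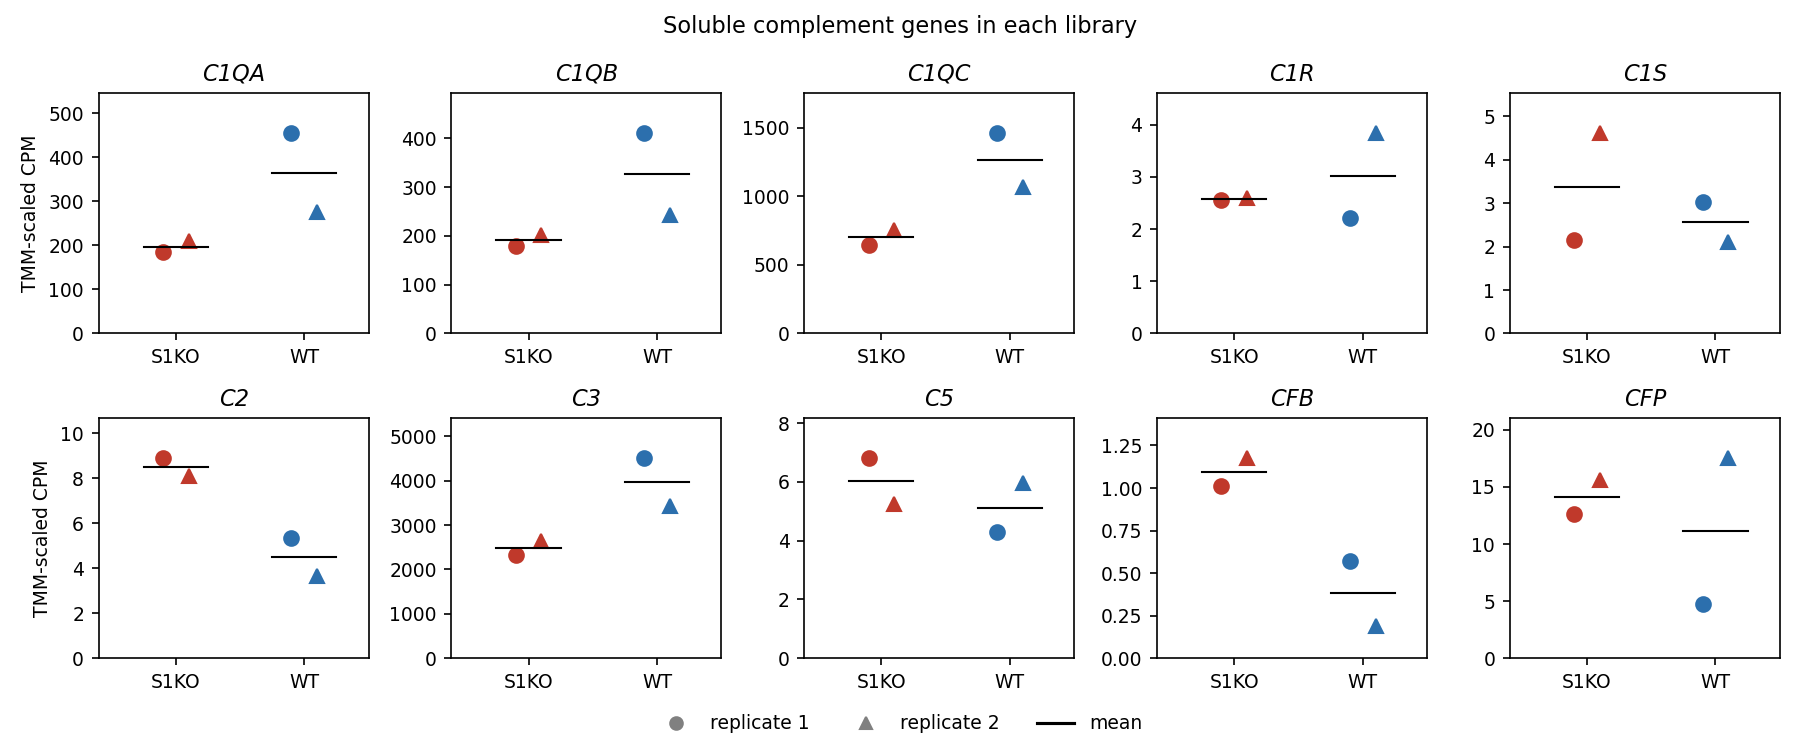
TMM-scaled CPM of each soluble complement gene (y axis, linear from 0, own scale per gene) in the S1KO and WT libraries, with circles for replicate 1, triangles for replicate 2 and a line at the group mean. Both S1KO libraries sit below both WT libraries for C1QA, C1QB, C1QC and C3 and above them for C2 and CFB, and the groups overlap for the other 4.

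Across the 10 genes, 0 had an edgeR quasi-likelihood adjusted p under 0.05, where 0.942% of all genes tested did (122 higher and 23 lower in S1KO). At an unadjusted p under 0.05 there were 5, against 19.5% of all genes. DESeq2 called 3 lower in S1KO (C1QA, C1QC and C3) and 0 higher, where it called 3.34% of all genes lower and 4.31% higher. Log2 fold changes were negative for 5 and positive for 5. Their median was -0.001, against -0.015 over all genes. For 4 of the 10, both libraries of S1KO were below both of WT, against 25.7% of all genes, and above them for 2, against 26.0%.

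The C1q chains form the recognition molecule of C1 and are encoded side by side on the plus strand of chromosome 1, C1QA at 22636506 to 22639608, C1QC at 22643630 to 22648110 and C1QB at 22652762 to 22661538. C1QA was measured at 184.0 and 209.8 CPM in S1KO, against 454.3 and 275.6 CPM in WT. C1QB was measured at 179.7 and 201.9 CPM in S1KO, against 409.9 and 243.4 CPM in WT. C1QC was measured at 643.8 and 757.7 CPM in S1KO, against 1458 and 1068 CPM in WT. For all 3 chains both S1KO libraries were low and close together, WT 1 was the highest library and WT 2 lay between, without overlap of the groups. The log2 fold change of C1QA was -0.89 (SE 0.27, 95% interval -1.53 to -0.25, edgeR adjusted p = 0.158, DESeq2 adjusted p = 0.0193). That of C1QB was -0.78 (SE 0.27, interval -1.43 to -0.12, edgeR adjusted p = 0.202, DESeq2 adjusted p = 0.0614). That of C1QC was -0.85 (SE 0.25, interval -1.45 to -0.25, edgeR adjusted p = 0.15, DESeq2 adjusted p = 0.00451).

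The size of the C1q difference depended on WT 1. Without WT 1 the log2 fold changes were -0.485 for C1QA, -0.351 for C1QB and -0.608 for C1QC. Without WT 2 they were -1.202, -1.099 and -1.054. With a library left out, its group keeps 1 library, whose spread is taken from the other group. No p-value is therefore given for these fits of the C1q chains. Each chain had a negative log2 fold change in all 17 alternatives run. The summed level of 15 microglia and macrophage markers was also lower, at 2800 and 2860 CPM in S1KO against 3800 and 4240 CPM in WT, and its part in the C1q values was not tested. The markers did not move together: CSF1R, PTPRC, TYROBP, TREM2, P2RY12, CX3CR1 and GAS6 were lower in both S1KO libraries, and the others overlapped between the groups. AIF1, for example, was at 317 and 291 CPM in S1KO against 307 and 247 CPM in WT. In bulk RNA, fewer cells of a type and less RNA per cell cannot be told apart.

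The proportions among the chains varied little between libraries. The ratio of C1QA to C1QC on TPM was 0.330 and 0.327 in S1KO, against 0.365 and 0.304 in WT, and that of C1QB to C1QC was 0.317 and 0.303 in S1KO, against 0.318 and 0.257 in WT. The S1KO ratios lay inside the WT range for both. The ratio of C1QA to C1QB was 1.04 and 1.08 in S1KO, against 1.15 and 1.19 in WT, without overlap. The protein holds the chains in equal number, while C1QC transcript exceeded that of either partner chain in all 4 libraries.

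C3 was measured at 2327 and 2635 CPM in S1KO, against 4509 and 3435 CPM in WT. Both S1KO libraries were below both WT libraries on this scale, with a mean of 2481 ± 218 CPM in S1KO and 3972 ± 760 CPM in WT (SD, n = 2 each). The log2 fold change was -0.68 (SE 0.28, 95% interval -1.35 to -0.01, edgeR adjusted p = 0.253, DESeq2 adjusted p = 0.0212). The groups overlapped per length, where S1KO 2 (5414 nuclear TPM) lay above WT 2 (5380). With an offset for effective length the log2 fold change was -0.406 (edgeR adjusted p = 0.481). The effective length that the files imply for C3 was 1289 and 1051 bases in S1KO, against 1472 and 1244 bases in WT, so it followed the mix of transcripts within the gene. Without WT 1 the log2 fold change on CPM was -0.469, and without WT 2 it was -0.858.

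**Figure D2:**
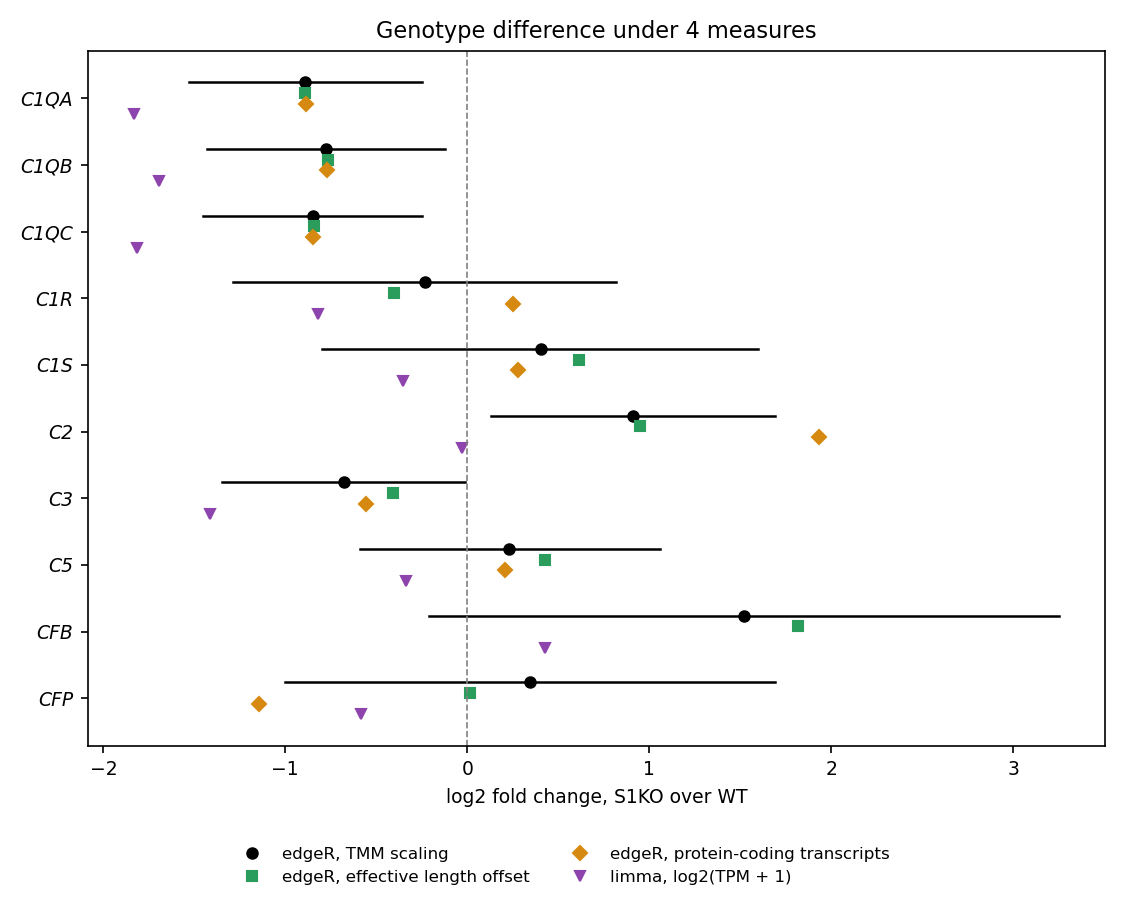
Log2 fold change of S1KO over WT (x axis) for each soluble complement gene under 4 measures, with the 95% interval of the TMM-scaled edgeR fit. The C1q chains and C3 lie left of 0 under every measure shown, C3 moves from -0.679 to -0.406 with an effective length offset, and limma on log2(TPM + 1), where the median of all genes is -0.783, sets most genes further left.

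Some transcripts of C3 held shares of its counts that did not overlap between the groups, while others overlapped. Over the transcripts of all genes compared further below, 24.2% lay above and 29.1% below in S1KO in this way. Among C3 transcripts above 1% of counts in a library, C3-216 differed most in relative terms. C3-216 took 3.79% (95% Wilson interval 3.59 to 3.99) and 4.62% (4.45 to 4.8) of C3 counts in S1KO, against 0.823% (0.774 to 0.874) and 1.51% (1.43 to 1.58) in WT. It is also the one C3 transcript above 1% that was higher in CPM in S1KO, at 88.18 and 121.7 CPM against 37.12 and 51.74 CPM in WT, while C3 as a whole was lower. Because the transcript is short, its share of C3 TPM was far larger, at 30.7% and 31.1% in S1KO, against 8.21% and 11.9% in WT. The intervals cover counting error only, and 2 libraries against 2 allow no exact permutation p below 0.333.

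C3-212, a retained-intron transcript with 1131 bases absent from C3-201, ran the other way. It took 13.5% and 19.6% of C3 counts in S1KO, against 23.8% and 25.6% in WT, and 315.1 and 515.9 CPM in S1KO, against 1072 and 878.7 CPM in WT. Neither measure overlapped between the groups. The full-length C3-201 took 70.1% and 59.4% in S1KO, against 62.1% and 55.2% in WT, and C3-211 took 11.0% and 14.4% in S1KO, against 11.3% and 15.0% in WT. Both overlapped on counts. On TPM, C3-211 took 36.0% and 38.8% in S1KO, against 44.5% and 47.5% in WT, without overlap. On CPM the full-length transcript stood at 1633 and 1565 in S1KO, against 2801 and 1897 in WT.

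Over all nuclear protein-coding genes, retained-intron transcripts took 8.87% and 11.3% of counts in S1KO, against 10.8% and 12.5% in WT, and the retained-intron transcripts of C3 together took 18.6% and 25.9% in S1KO, against 26.4% and 29.5% in WT. On TPM, where C3-216 weighs more, the retained-intron transcripts of C3 took 45.1% and 47.8% in S1KO, against 36.4% and 37.7% in WT. As a class they were thus lower in S1KO on counts and higher on TPM, without overlap on either scale. Among 16958 transcripts of 3347 genes, with a mean gene count of at least 1000 and a mean share of 1% to 99%, both S1KO shares lay above both WT shares for 24.2% and below them for 29.1%. Of 13 such transcripts from 4 members, 4 lay above and 3 below.

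**Figure D3:**
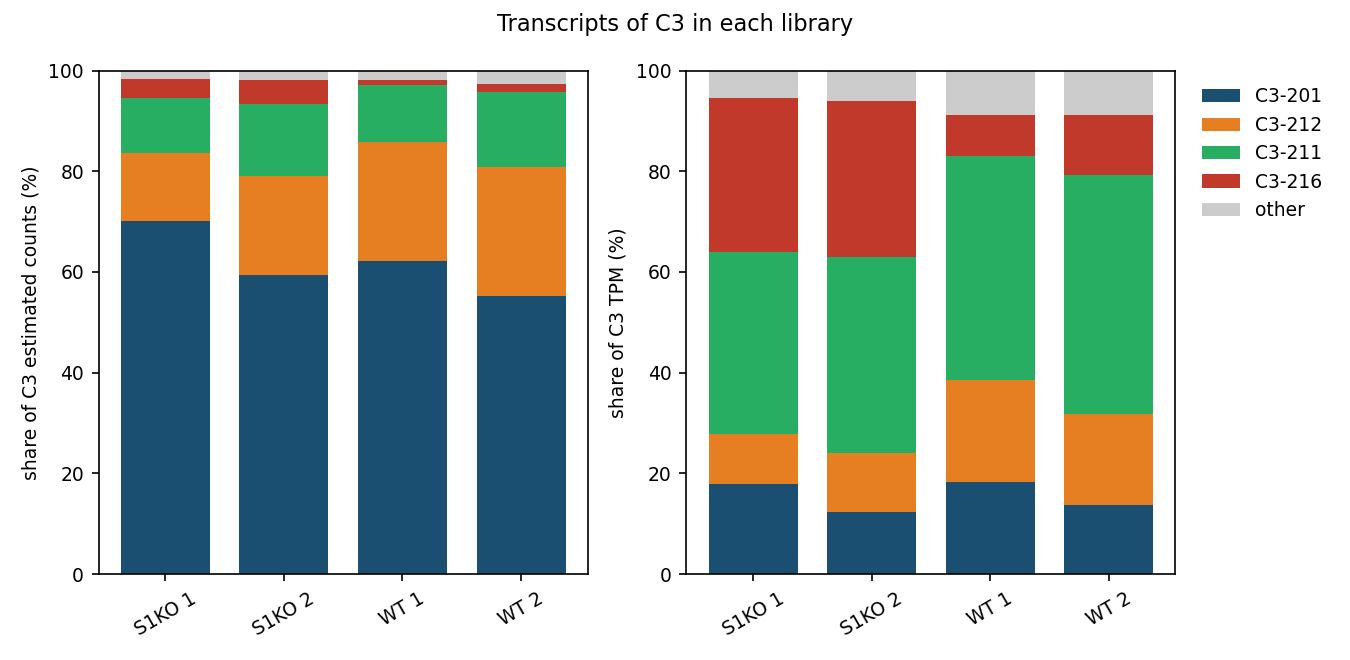
Share of C3 estimated counts (left, %) and of C3 TPM (right, %) held by its main transcripts in each library, stacked. C3-216 takes a wider band in both S1KO libraries on both scales, with 30.7% and 31.1% of TPM against 8.21% and 11.9% in WT.

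Among the C1q chains, the shares of every C1QC transcript, of C1QB-202 and of C1QB-203 did not overlap between the genotypes. Of the transcripts compared above over all genes, 24.2% lay above and 29.1% below in S1KO in this way. C1QC-203, its main coding transcript, took 66.9% (95% Wilson interval 66.0 to 67.9) and 75.3% (74.6 to 75.9) of C1QC counts in S1KO, against 81.7% (81.3 to 82.1) and 84.1% (83.7 to 84.5) in WT. C1QC-202, which differs by 23 bases of its first exon in GENCODE 29, took 29.2% and 22.3% in S1KO, against 16.0% and 14.6% in WT. The groups did not overlap for either. The intervals cover counting error only, not the uncertainty of placing reads between transcripts. In GENCODE 29, C1QC-202 shares 1160 of its 1183 bases with C1QC-203. On CPM, C1QC-203 was at 431.1 and 570.5 in S1KO, against 1191 and 898.5 in WT, whereas C1QC-202 was at 188.4 and 168.9 in S1KO, against 233.6 and 156.5 in WT. The groups were apart for C1QC-203 and overlapped for C1QC-202. C1QB-202, which carries 153 bases of an exon absent from C1QB-201, took 2.60% and 1.62% of C1QB counts in S1KO, against 0.443% and 0.479% in WT. That was 4.667 and 3.273 CPM in S1KO, against 1.816 and 1.166 CPM in WT, again without overlap. C1QB-203 took 21.7% and 18.5% of C1QB counts in S1KO, against 22.6% and 27.1% in WT. The main C1QA transcripts overlapped between the groups, with C1QA-201 at 60.4% and 43.3% in S1KO and at 53.5% and 45.2% in WT. Some C1q transcripts are shorter in the deposited files than in GENCODE 29, so their base counts describe the annotation and may differ from the sequences the authors quantified.

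**Figure D4:**
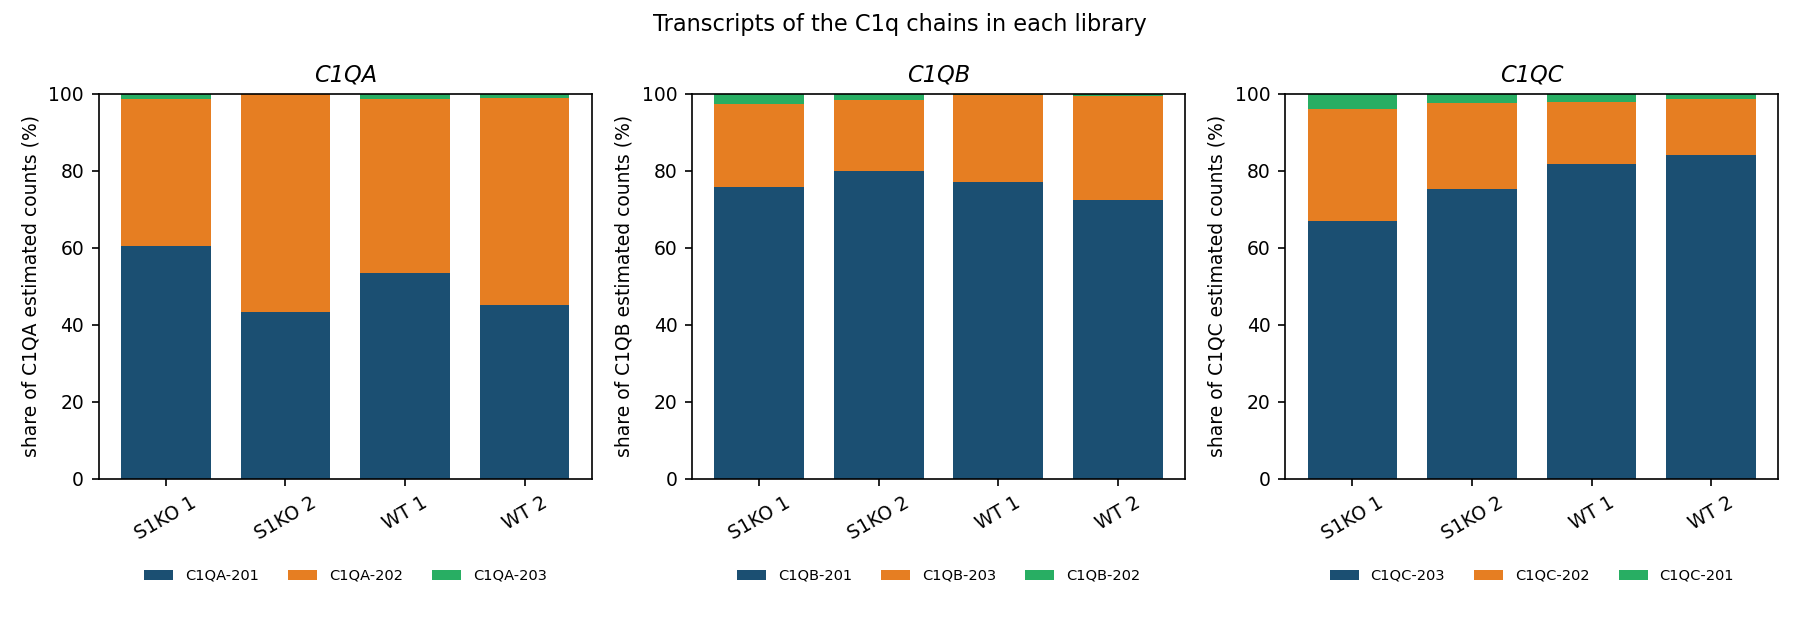
Share of estimated counts (%) of C1QA, C1QB and C1QC held by each of their 3 most abundant transcripts in the S1KO and WT libraries. C1QC-203 is at 66.9% and 75.3% in S1KO against 81.7% and 84.1% in WT, and the main C1QA transcripts overlap.

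C1R and C1S, the protease pair carried by C1q, lie near each other on chromosome 12 (7080199 to 7092607, minus strand, and 6988259 to 7071032, plus strand). C1R was measured at 2.561 and 2.586 CPM in S1KO, against 2.216 and 3.83 CPM in WT. C1S was measured at 2.157 and 4.607 CPM in S1KO, against 3.038 and 2.107 CPM in WT. Neither gene separated the groups, and the log2 fold changes were -0.23 (SE 0.44, interval -1.29 to 0.82) for C1R and 0.40 (SE 0.50, interval -0.80 to 1.6) for C1S. Their adjusted p-values in edgeR were 0.808 and 0.701. Without WT 1 the log2 fold changes were -0.572 for C1R and 0.697 for C1S, and without WT 2 they were 0.219 and 0.174. In WT 1, where mesenchymal markers were high, C1R had its lowest level on CPM and C1S lay between the S1KO libraries. On nuclear TPM, C1R was lowest in S1KO 2 (2.355), with WT 1 at 2.629. A mesenchymal part in these values was not tested. The intervals leave room for a difference of more than 2-fold downward for C1R and upward for C1S.

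C2 and CFB, the proteases of the classical and alternative C3 convertases, overlap by a few bases on chromosome 6 (31897785 to 31945672 and 31945650 to 31952084, plus strand). C2 was measured at 8.896 and 8.086 CPM in S1KO, against 5.361 and 3.671 CPM in WT. Both S1KO libraries were above both WT libraries, with a log2 fold change of 0.91 (SE 0.32, interval 0.13 to 1.69, edgeR adjusted p = 0.205, DESeq2 adjusted p = 0.162). Without WT 1 the log2 fold change was 1.208, and without WT 2 it was 0.665. With limma on log2(TPM + 1), where the median over all genes was -0.783, it was -0.028 (limma adjusted p = 0.966). Before scaling, the estimated counts of C2 overlapped, at 131.6 and 172.1 in S1KO against 149.6 and 114.8 in WT. CFB rested on 15.0 and 25.0 estimated counts in S1KO, against 16.0 and 6.0 in WT, which TMM scaling set at 1.011 and 1.175 CPM in S1KO, against 0.5718 and 0.1915 CPM in WT. Its log2 fold change was 1.52 (SE 0.72, interval -0.21 to 3.25, edgeR adjusted p = 0.309), and it was 2.483 without WT 1 and 0.936 without WT 2. Copies on alternate contigs held 69.6% and 67.1% of C2 counts in S1KO, against 77.7% and 91.3% in WT, and 48.1% and 61.0% of CFB counts in S1KO, against 55.1% and 93.2% in WT. Without those copies the log2 fold change of C2 was 1.844 (edgeR adjusted p = 0.218), and CFB had too few counts to be tested.

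C5, whose cleavage starts the terminal route, was measured at 6.807 and 5.265 CPM in S1KO, against 4.289 and 5.969 CPM in WT. CFP, properdin, stabilises the alternative convertase and was measured at 12.67 and 15.65 CPM in S1KO, against 4.754 and 17.52 CPM in WT. The groups overlapped for both, with log2 fold changes of 0.23 (SE 0.34, edgeR adjusted p = 0.751) for C5 and 0.35 (SE 0.56, edgeR adjusted p = 0.772) for CFP. Without WT 1 the C5 value was 0.012, and without WT 2 it was 0.492. The CFP value depended on which WT library was kept, and was -0.303 without WT 1 and 1.58 without WT 2. Retained-intron transcripts held 88.4% and 84.0% of CFP counts in S1KO, against 64.9% and 60.0% in WT. Coding transcripts held 10.9% (95% Wilson interval 6.99 to 15.9) and 16.0% (12.4 to 20.2) in S1KO. In WT they held 35.1% (27.7 to 43.8) and 38.7% (34.8 to 42.9). That coding part rested on only 20.5 and 53.3 estimated counts in S1KO, against 46.6 and 212.6 in WT. CFP had too few counts to enter the comparison of transcript shares over all genes, so these shares have no background beside them. With protein-coding transcripts alone the log2 fold change of CFP was -1.143 (edgeR adjusted p = 0.491).

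Of 44 other complement genes, 32 were tested, 1 rose and 0 fell in S1KO in edgeR, against 0.793% and 0.149% of all genes. At an unadjusted edgeR p under 0.05 there were 10, against 19.5% of all genes. DESeq2 called 2 higher and 5 lower in S1KO, where it called 4.31% of all genes higher and 3.34% lower. The median log2 fold change of the 32 was -0.27, against -0.015 over all genes, with 21 negative and 11 positive. The gene that rose was FCN1, the myeloid ficolin that starts the lectin route, at 9.907 and 7.898 CPM in S1KO against 1.465 and 1.085 CPM in WT (log2 fold change 2.80, SE 0.37, edgeR adjusted p = 0.0405). It passed in 9 of the 16 alternatives that gave it a value. MASP2, the lectin route's protease, was at 0.1348 and 0.3761 CPM in S1KO, against 1.93 and 1.309 CPM in WT (log2 fold change -2.58, SE 0.69, edgeR adjusted p = 0.129). That rested on only 2 and 8.1 estimated counts in S1KO, against 54.4 and 41.1 in WT. MASP2 was lower in S1KO in all 16 alternatives that gave it a value, and passed in 3 of them. CFI, the protease that inactivates C3b, was at 0.7414 and 1.457 CPM in S1KO, against 0.3217 and 0.3192 CPM in WT (1.78, SE 0.66, edgeR adjusted p = 0.217). Its estimated counts were also low, at 10.8 and 30.9 in S1KO against 8.9 and 10 in WT.

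The other partners reported here were not called in edgeR with TMM scaling, and C1RL alone among them was called in any alternative (2 of 17, lowest adjusted p 0.0428). C4A and C4B, near-identical copies between which reads cannot be placed with certainty, had log2 fold changes of -0.42 (edgeR adjusted p = 0.654) and 0.93 (edgeR adjusted p = 0.365). MASP1, another lectin route protease, was at -0.39 (edgeR adjusted p = 0.811), and C1RL, a relative of C1R, at -0.22 (edgeR adjusted p = 0.62). Factor D, which cleaves factor B and is encoded by CFD, was at 0.05 (edgeR adjusted p = 0.958). SERPING1, the inhibitor of C1, was at -0.15 (edgeR adjusted p = 0.928).

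**Figure D5:**
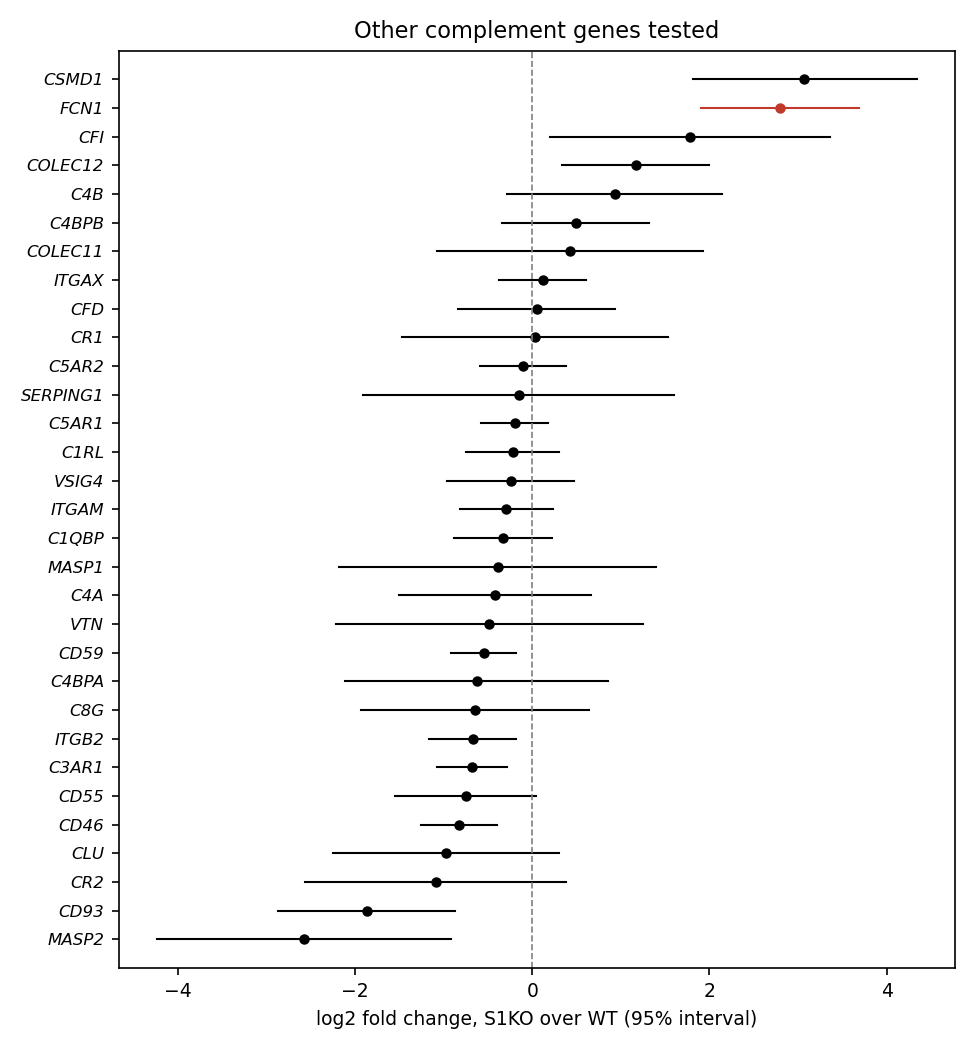
Log2 fold change of S1KO over WT with its 95% interval (x axis) for the other complement genes that were tested, 1 of them not shown, ordered by value, in red where edgeR's adjusted p was under 0.05. FCN1, at 2.80, is the one gene in red.

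Beyond complement, the 5 genes whose levels followed C1q most closely over the 4 libraries included OLFML3, TM7SF2, PGRMC2 and PTGFRN. The measure was the Euclidean distance between log2 CPM profiles centred per gene, over 8616 protein-coding genes with a mean TPM of at least 5. OLFML3 lay at 0.0419 and PTGFRN at 0.115 from the mean C1q profile, inside the largest distance of a C1q chain itself (0.141), which 13 genes met. On nuclear TPM, OLFML3 was again nearest (0.0528). The C1q profile was highest in WT 1, and the distances were not computed without that library. With 4 libraries many genes can share a profile. The genes nearest to C3 on CPM, LMO7, PEMT, CCDC86, GANAB and PLOD1, were not among the nearest 5 on nuclear TPM.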

How the data were processed

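Poly-A RNA was sequenced as paired 150 bp reads, per the labels' protocols. The submitters' processing notes name kallisto and hg38; version and transcript set: not given in the sources used here. Per the file headers, the authors deposited estimated counts and TPM for each transcript. Transcripts were summed to genes with GENCODE 29: 169797 matched by identifier, 15521 by symbol, and 3435 (0.323% to 0.643% of counts) were left out. Rounded sums were filtered with filterByExpr, scaled by TMM (factors 0.653 to 1.313) and tested with edgeR 4.0.16 (R 4.3.3) with Benjamini-Hochberg adjustment over 15387 genes; DESeq2 1.42.0 and limma 3.58.1 were alternatives. Transcript shares have 95% Wilson intervals and no test. At least 263 genes differed over 4-fold between any 2 libraries, so none was a copy. The members, gene lists and naming rule (all members, INPP5D, soluble partners, called complement genes, nearest genes) were chosen with earlier results of these data known. A few genes that the naming rule covers are not reported here.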

Additional observations from a re-analysis of the deposited data

How the results depend on the processing

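With 2 libraries per group, small changes were beyond this design, and nuclear counts in S1KO (9319000 and 12891104) were fewer than in WT (18055337 and 20540060). The 145 genes called became 1155 with DESeq2, 1361 without a filter, 224 with a stricter filter, 2896 and 2643 with limma on log2(TPM + 1) and log2(TPM + 0.1), 21 with protein-coding transcripts only and 0 to 2140 with a library left out. Of 145 calls 122 were higher in S1KO, of 1155 with DESeq2 651, and of 2896 with limma 133. Members called went to 3 with DESeq2, 3 without a filter, 3 and 3 with limma on the 2 TPM scales, and 0 to 4 with a library left out. The members' median of -0.001 became -0.701 and -0.949 with limma on TPM, -0.556 with protein-coding transcripts and -0.327 to 0.196 with a library left out. With mitochondrial genes taken out of the TPM, limma on log2(TPM + 1) called 108 genes and 0 members. The members' median was then 0.098. The cause of these shifts was not tested.

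Signs turned for CFP (-0.303 to 1.58 with a library left out, -1.143 with protein-coding transcripts), C1R (-0.572 to 0.219, and 0.254 with protein-coding transcripts) and C1S (-0.271 to 0.83). On log2(TPM + 1) and log2(TPM + 0.1), where mitochondrial counts stay in the total, C1S was at -0.353 and -0.553, C2 at -0.028 and -0.032, C5 at -0.338 and -0.485, and CFP at -0.582 and -0.617. The S1KO excess of C3-216 was 3.038 percentage points of counts and 20.856 of TPM. Same-numbered libraries did not deviate together (r = 0.025 over 15387 genes). That cannot decide whether the numbers pair them, since the deviations also hold what is particular to a single library, such as WT 1. With the replicate number as a block edgeR called 0 genes (2891 at unadjusted p under 0.05). Without S1KO 1 or S1KO 2 edgeR called 0 genes (1172 and 1642 at unadjusted p under 0.05).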
